A study of Rattus norvegicus with 56 samples.

Results

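The epidermal growth factor (EGF) family was followed in tubules of rat kidney during the first hours of ureteral obstruction. The 10 genes described are the 6 ligands Egf, Hbegf, Areg, Ereg, Tgfa and Btc and the 4 receptors Egfr, Erbb2, Erbb3 and Erbb4. They were found by gene symbol in the 30 min table and carried to the 3 h table by Ensembl identifier, and all 10 were present among the 32883 genes of each table. The animals were male Sprague-Dawley rats. In UUO (unilateral ureteral obstruction) rats the left ureter was tied off, and in sham rats the same surgery left the ureter untied. Cortical collecting duct (CCD) and cortical thick ascending limb (cTAL) were microdissected at 30 min or 3 h, which gave 8 groups: CCD UUO, CCD sham, cTAL UUO and cTAL sham at each time. Every group held 4 numbered animals, with 2 libraries per number for CCD and 1 for cTAL, so that 48 libraries were used. A further 8 whole-kidney samples were not analysed here.

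EGF family ligands are made as membrane-anchored precursors, are cut free by ADAM metalloproteases, and bind receptor tyrosine kinases that pair and signal through the Ras-ERK and PI3-kinase pathways. All the ligands named above bind the EGF receptor, and some of them also bind ErbB4. ErbB2 binds none of them and acts as a partner, while ErbB3 has little kinase activity and is a receptor for neuregulins. The kidney is a main source of urinary EGF, which is made in the thick ascending limb and distal convoluted tubule.

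Values are TPM, a transcript abundance in which each gene is divided by its length and each library is scaled to the same total, so that levels can be set side by side between genes. TPM keep no sequencing depth, so depth is unknown and no detection limit is given. Between 8744 and 11916 genes per library were at 1 TPM or more at 30 min, and between 9585 and 10750 at 3 h. The library with 8744, library 2 of CCD UUO animal 2 at 30 min, stood apart. The summed level of 8 principal cell genes ran from 5503 to 18653 TPM in CCD and from 52.4 to 618 TPM in cTAL. That of 8 thick ascending limb genes ran from 294 to 10328 TPM in CCD and from 31522 to 72428 TPM in cTAL. In CCD sham at 30 min this second sum averaged 1234 TPM, with Umod at 129 TPM and Slc12a1 at 4.80 TPM. Most of it there came from the other listed genes. The 2 time tables were made separately, so no level was compared between them. Changes are differences of log2(TPM + 1) with the standard error (SE) from limma, a moderated linear model fitted to every gene with at least 1 TPM in at least 4 animal values, and this scale understates the change of low genes. A gene was called where its p, adjusted over all genes tested (Benjamini-Hochberg), was under 0.05. Levels are mean ± SD over 4 animals. In these bulk samples, fewer cells of a type and less RNA per cell cannot be told apart.

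The results turn most on Hbegf, Egf and Btc, and the 250 bases before the annotated start of each, from RefSeq on the rat build GRCr8, are shown so that their start regions can be compared. Such a window was matched for 8 of the 10 members, not for Ereg or Erbb3. Capitals mark matches on either strand to the GC box GGGCGG, the TATA box TATAAA, the AP-1 element TGANTCA or the short cAMP response element TGACG. The windows are at chr18:28390221-28390470 for Hbegf and chr2:220976298-220976547 for Egf, both on the minus strand, and at chr14:16992418-16992667 on the plus strand for Btc, each written 5′ to 3′ along the gene.
Hbegf: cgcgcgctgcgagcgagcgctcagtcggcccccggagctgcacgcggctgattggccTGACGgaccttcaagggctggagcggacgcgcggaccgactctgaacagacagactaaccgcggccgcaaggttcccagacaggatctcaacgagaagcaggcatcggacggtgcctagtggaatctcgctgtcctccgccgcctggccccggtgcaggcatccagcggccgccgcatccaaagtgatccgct
Egf: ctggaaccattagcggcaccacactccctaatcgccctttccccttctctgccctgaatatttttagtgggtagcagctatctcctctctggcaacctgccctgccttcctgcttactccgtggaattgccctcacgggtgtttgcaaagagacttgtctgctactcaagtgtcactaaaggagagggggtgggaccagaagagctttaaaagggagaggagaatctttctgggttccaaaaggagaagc
Btc: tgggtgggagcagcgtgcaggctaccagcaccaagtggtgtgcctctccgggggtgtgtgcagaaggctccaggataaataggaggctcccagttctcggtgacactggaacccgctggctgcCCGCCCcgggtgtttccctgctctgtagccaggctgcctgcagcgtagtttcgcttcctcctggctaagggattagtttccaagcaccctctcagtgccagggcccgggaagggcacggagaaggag
The Hbegf window held 1 short cAMP response element, 193 to 189 bases before the start, and the Areg window also held this motif, which was in 18.2% of the 33469 windows of the annotation. Btc held 1 GC box, 127 to 122 bases before the start. The GC box was in 6 of the 8 member windows (Areg, Tgfa, Btc, Egfr, Erbb2 and Erbb4) and in 30.5% of all windows. Egf held none of the 4 motifs in its window. The TATA box was in the Areg window and in 12.9% of all windows, and the AP-1 element was in none of the 8 and in 6.34% of all windows.

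**Figure D1:**
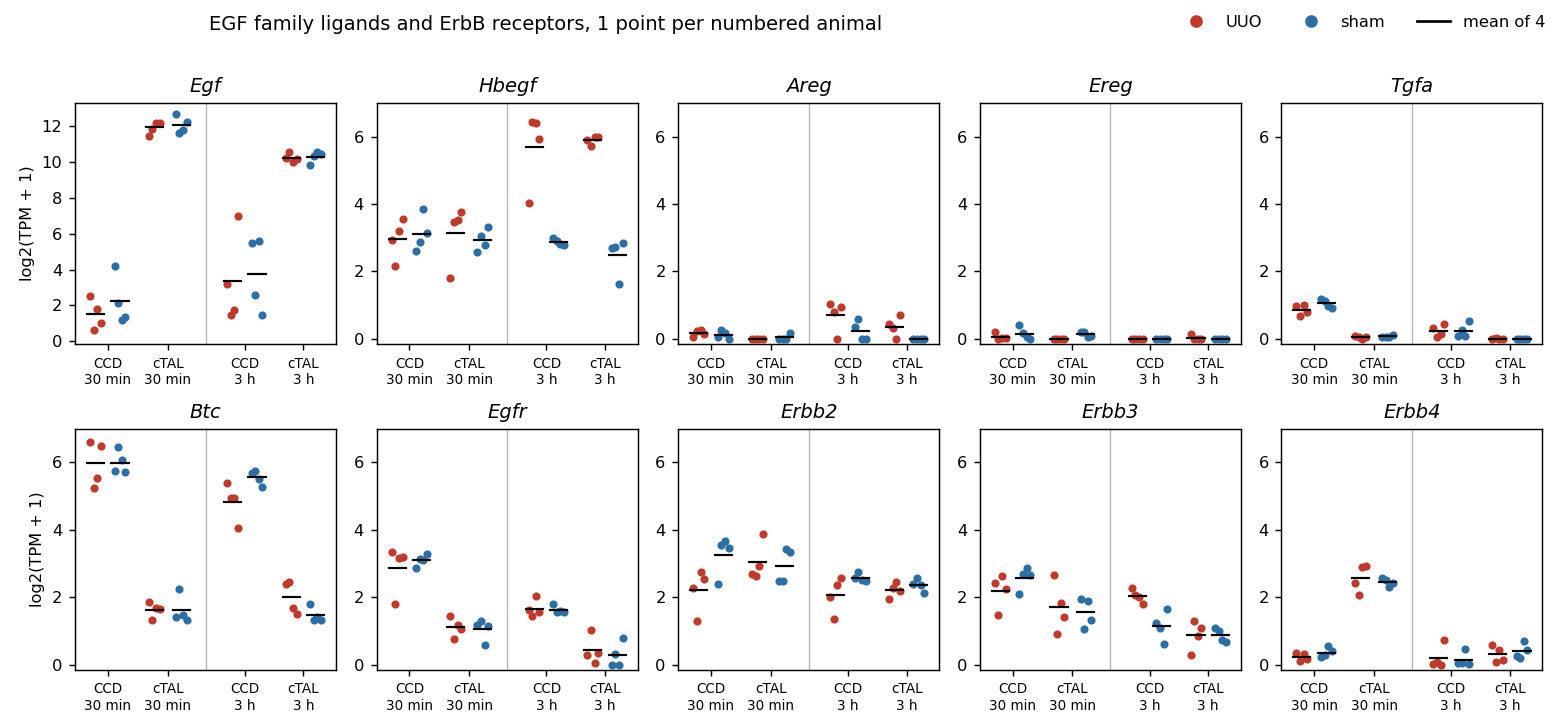
Level of each member on the log2(TPM + 1) scale in CCD and cTAL at 30 min and 3 h, with a point per numbered animal, UUO left of sham, and the mean of 4 marked. Egf stands highest in cTAL, Btc is higher in CCD than in cTAL, and Hbegf stands higher in UUO than in sham in both segments at 3 h.

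The division of the family between the segments was read in sham animals, as CCD minus cTAL within each number. At 30 min 7 members were tested, of which 3 were higher in CCD (Btc, Egfr and Erbb3) and 2 were lower (Egf and Erbb4), where 54.9% of 11648 genes were called, 41.7% higher and 13.2% lower. At 3 h 6 were tested, of which 2 were higher (Btc and Egfr) and 1 was lower (Egf), where 38.2% of 10521 genes were called, 27.7% higher and 10.4% lower. With so large a share of all genes called, the counts are no result about the members, and the values of each are given. The median of all genes was 0.30 at 30 min and 0.30 at 3 h, and moved to 0.00 and 0.02 after median-of-ratios rescaling.

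Egf was the most abundant member in cTAL. At 30 min the sham animals had 20.9, 3.34, 1.42 and 1.62 TPM in CCD and 6598, 3110, 3487 and 4866 TPM in cTAL. Every cTAL value lay far above every CCD value, with a log2 difference of -9.86 (SE 0.36, adjusted p = 2.98e-06). By mean TPM at 30 min Egf ranked 26 among all genes in cTAL UUO and 22 in cTAL sham, and at 3 h it ranked 134 in cTAL UUO and 121 in cTAL sham. At 3 h the sham animals had 130, 7.59, 103 and 2.42 TPM in CCD and 921, 1310, 1524 and 1374 TPM in cTAL, again without overlap (difference on the log2 scale -6.53, SE 0.74, adjusted p = 0.00111).

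Btc encodes betacellulin, a ligand of the EGF receptor and ErbB4, and was called higher in CCD. At 30 min the sham animals had 52.4, 86.5, 71.8 and 51.2 TPM in CCD, against 1.66, 3.76, 1.8 and 1.52 TPM in cTAL. The ranges lay far apart (difference on the log2 scale 4.37, SE 0.13, 20.7-fold, adjusted p = 1.50e-06). At 3 h the sham animals had 50.7, 52.7, 44.2 and 38.1 TPM in CCD and 2.46, 1.53, 1.68 and 1.5 TPM in cTAL, again without overlap (difference on the log2 scale 4.08, SE 0.19, 16.96-fold, adjusted p = 6.13e-05). At 30 min Hbegf in sham averaged 8.28 ± 3.89 TPM in CCD against 6.78 ± 1.79 TPM in cTAL, and at 3 h 6.43 ± 0.42 TPM in CCD against 4.85 ± 1.86 TPM in cTAL. Its log2 differences of 0.19 (SE 0.24) and 0.40 (SE 0.27) were not called (limma adjusted p = 0.545 and 0.274).

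The other 3 ligands were scarce and passed the filter in no comparison. No animal of any group was above 1.06 TPM for Areg, 1.3 TPM for Tgfa or 0.33 TPM for Ereg. Tgfa, the gene of TGF-alpha, averaged 0.846 ± 0.171 TPM in CCD UUO and 1.09 ± 0.173 TPM in CCD sham at 30 min. In cTAL at that time Tgfa was at 0.060, 0.040, 0 and 0.030 TPM in UUO and 0.050, 0.030, 0.050 and 0.090 TPM in sham, so that in both arms every CCD animal lay above every cTAL animal, with no test. Areg, the amphiregulin gene, had 1.06, 0.73, 0 and 1.0 TPM in CCD UUO at 3 h, against 0.33, 0.55, 0 and 0 TPM in CCD sham. In cTAL at 3 h Areg had 0.36, 0.24, 0 and 0.64 TPM in UUO and was listed at 0 in all 4 sham libraries. Ereg, the epiregulin gene, was listed at 0 in every CCD animal at 3 h. In cTAL at 30 min Ereg was listed at 0 in all 4 UUO libraries and had 0.15, 0.16, 0.040 and 0.060 TPM in sham, and it was not tested.

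Among the receptors, Egfr was higher in CCD. At 30 min the sham animals had 6.33, 7.84, 7.79 and 8.76 TPM in CCD, against 1.27, 1.47, 0.51 and 1.23 TPM in cTAL, without overlap (difference on the log2 scale 2.04, SE 0.18, 4.11-fold, adjusted p = 1.40e-04). At 3 h they had 2.52, 1.94, 2.11 and 2.07 TPM in CCD and 0, 0.25, 0 and 0.73 TPM in cTAL, with every cTAL library under 1 TPM (difference on the log2 scale 1.35, SE 0.24, adjusted p = 0.00588). Egfr thus passed the filter at 3 h through its CCD values alone, and the call held in all 10 alternatives, among them no filter. Erbb4 ran the other way at 30 min, with 0.16, 0.21, 0.46 and 0.345 TPM in CCD and 5.0, 4.65, 3.95 and 4.31 TPM in cTAL. Every cTAL value was above every CCD value (difference on the log2 scale -2.09, SE 0.16, adjusted p = 7.48e-05). Every CCD value was under 1 TPM, so Erbb4 passed the filter through its cTAL values alone. The call held in all 9 alternatives, among them no filter. At 3 h Erbb4 was under 1 TPM in every animal of both segments and was not tested.

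Erbb3 was higher in CCD at 30 min, at 5.22 ± 1.39 TPM against 2.02 ± 0.87 TPM in cTAL (difference on the log2 scale 1.03, SE 0.25, adjusted p = 0.0115). That call was lost without the filter and under quantile normalization, where the difference was 0.68. At 3 h its difference of 0.28 (SE 0.24) was not called. At 30 min Erbb2, the partner receptor, averaged 9.28 ± 3.40 TPM in CCD against 7.03 ± 2.83 TPM in cTAL, and at 3 h 5.52 ± 0.485 TPM in CCD against 4.20 ± 0.642 TPM in cTAL. Neither Erbb2 difference was called (log2 0.33 and 0.21).

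In order of mean level, Btc led in CCD sham at 30 min with no overlap with the next member. Erbb2, Hbegf, Egfr, Egf and Erbb3 followed, each with a range that overlapped that of its neighbour. In cTAL sham at 30 min Egf led with no overlap, and Erbb2, Hbegf and Erbb4 followed with overlapping ranges and means of 7.03 TPM, 6.78 TPM and 4.48 TPM. As a share of the summed TPM of the 6 ligands, Egf made up 99.7 ± 0.059% in cTAL UUO and 99.8 ± 0.104% in cTAL sham at 30 min. Btc made up 85.1 ± 4.31% in CCD UUO and 79.6 ± 9.95% in CCD sham at that time.

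**Figure D2:**
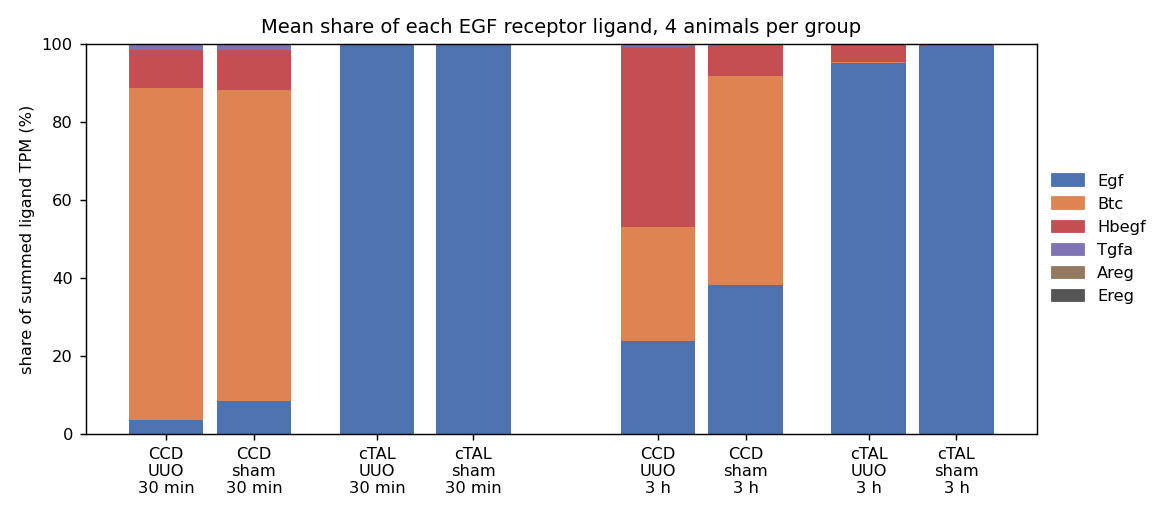
Mean share (%) of each of the 6 ligands in their summed TPM over 4 animals per group, with UUO left of sham in each segment and time. At 3 h the mean Hbegf share was 46.2% in CCD UUO and 7.56% in CCD sham, and 4.71% in cTAL UUO and 0.40% in cTAL sham.

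After 30 min of obstruction no member was called in either segment. In CCD 6 members were tested, where 0.0264% of 11369 genes were called and 15.7% had an unadjusted p under 0.05. In cTAL 7 were tested, where 0.00910% of 10993 genes were called and 2.27% had an unadjusted p under 0.05. The members' median log2 change was -0.31 in CCD and 0.10 in cTAL, beside -0.31 and -0.07 for all genes. The median of all genes in CCD moved to -0.02 after median-of-ratios rescaling.

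Erbb2 in CCD at 30 min was at 3.83, 1.76, 5.79 and 4.85 TPM in UUO animals and at 4.26, 10.97, 11.7 and 10.2 TPM in sham. Sham animal 1 fell among the UUO values, and the other 3 sham animals lay above all of them. The log2 change was -1.05 (SE 0.38, adjusted p = 0.280), and -0.87 (SE 0.30) without the library that stood apart. Library 1 of each animal alone gave -1.14 with an adjusted p of 0.0487, and library 2 alone gave -0.96 with an adjusted p of 0.513. Sham animal 1 also had 3822 TPM of the connecting tubule marker Calb1, against 123 to 523 TPM in the other 3 sham animals and 327 to 1072 TPM in UUO, and the part of this in the result was not tested. In cTAL Erbb2 had a log2 change of 0.10 (SE 0.35). The difference between the segments' changes was -1.15 (SE 0.36, adjusted p = 0.183). With limma, 0% of 12343 genes were called in that comparison and 14.7% had an unadjusted p under 0.05.

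The other members tested at 30 min had overlapping ranges in UUO and sham. Hbegf was at 6.81, 3.73, 8.32 and 11.3 TPM in CCD UUO and 5.09, 6.33, 13.9 and 7.84 TPM in CCD sham (change on the log2 scale -0.15, SE 0.36). In cTAL it was at 2.53, 10.02, 10.6 and 12.7 TPM in UUO animals and 4.99, 7.21, 5.84 and 9.08 TPM in sham (change on the log2 scale 0.22, SE 0.41). In cTAL 3 UUO animals lay above every sham animal and UUO animal 1 lay below them all. Egf in cTAL was at 2792, 3720, 4718 and 4696 TPM in UUO animals and 6598, 3110, 3487 and 4866 TPM in sham, with overlapping ranges (change on the log2 scale -0.15, SE 0.25). Btc had log2 changes of -0.02 (SE 0.33) in CCD and 0.01 (SE 0.24) in cTAL. Egfr had -0.22 (SE 0.34) in CCD and 0.05 (SE 0.22) in cTAL on the same scale. Erbb3 had -0.39 (SE 0.29) in CCD and 0.15 (SE 0.38) in cTAL, and Erbb4, tested in cTAL, had 0.12 (SE 0.23). In CCD the signs of Hbegf, Btc and Egfr turned under median-of-ratios and quantile scaling, and that of Erbb3 under quantile scaling.

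**Figure D3:**
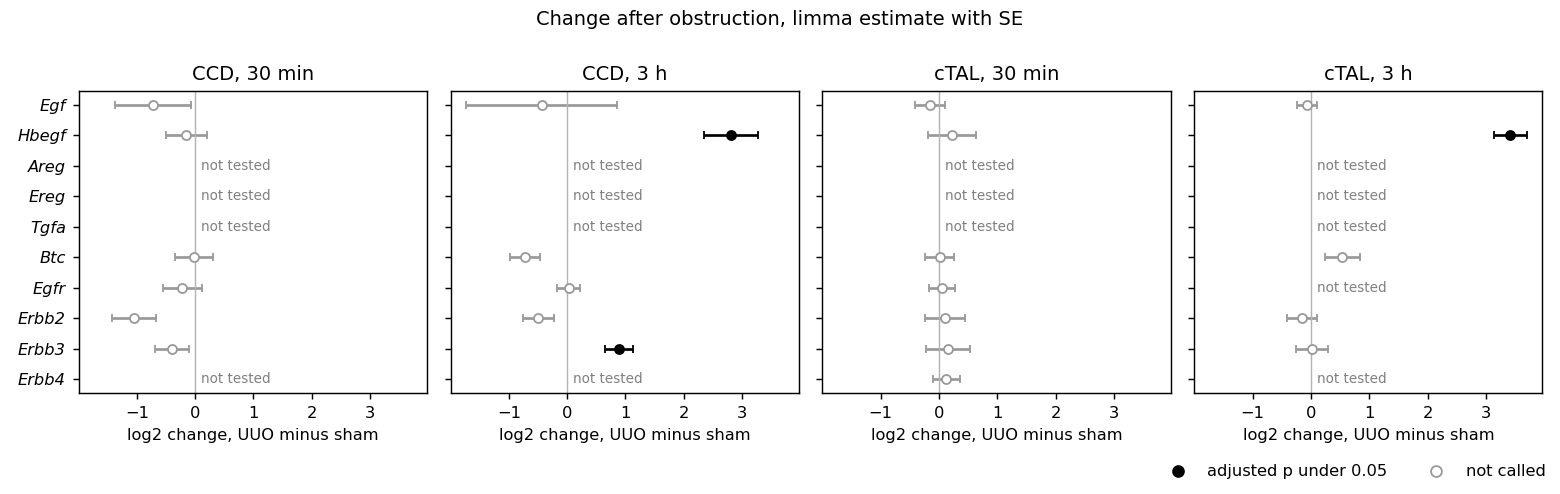
Log2 change of each tested member, UUO minus sham, in CCD and cTAL at 30 min and 3 h, with the limma SE. Filled points were called and open points were not: Hbegf is filled in both segments at 3 h, Erbb3 in CCD at 3 h, and no point is filled at 30 min.

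At 3 h of obstruction Hbegf rose in both segments. It encodes heparin-binding EGF-like growth factor, a ligand of the EGF receptor and ErbB4 that is shed from the cell surface. In CCD it was at 15.8, 87.6, 83.01 and 60.2 TPM in UUO animals, against 6.97, 6.55, 6.18 and 6.03 TPM in sham. All 4 UUO animals lay above all 4 sham animals, animal 1 by the least, and the sham animals were close together. The log2 change was 2.81 (SE 0.46, 7.04-fold, adjusted p = 0.00894), and 3.37 (SE 0.17) without UUO animal 1. The libraries of UUO animal 1 were at 11.7 and 19.9 TPM, the other 6 UUO libraries ran between 52.8 and 111 TPM, and the 8 sham libraries ran between 4.41 and 7.68 TPM. Library 1 alone gave a log2 change of 2.49 and library 2 alone gave 3.14, both called.

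In cTAL Hbegf was at 58.1, 52.01, 62.02 and 61.9 TPM in UUO animals, against 5.42, 5.68, 2.1 and 6.18 TPM in sham. The UUO libraries were close together and far above every sham library (change on the log2 scale 3.42, SE 0.28, 10.7-fold, adjusted p = 2.28e-04). By p Hbegf ranked 152 among 10530 genes in CCD and 10 among 10023 genes in cTAL. It kept its call in each of the 16 alternatives run in CCD and the 13 run in cTAL. The difference between the segments' changes was -0.60 (SE 0.52, adjusted p = 0.675), and -0.05 without UUO animal 1, in a comparison that called 1.08% of 11515 genes and none of 6 members tested.

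The change of Hbegf at 3 h was also set against its change at 30 min. In cTAL the difference of the log2 changes was 3.20 (SE 0.52, adjusted p = 0.00644), where 2.28% of 11765 genes were called, and it was called in all 21 alternatives. In CCD it was 2.96 (SE 0.63, adjusted p = 0.0344), where 1.54% of 11959 genes were called. The CCD call was lost in 12 of 23 alternatives, among them 10 of 16 fits that left out 1 animal, with log2 values between 2.34 and 3.52. It held without sham animal 1 or UUO animals 3 or 4 of 30 min, and without sham animal 1 or UUO animals 1 or 3 of 3 h. Hbegf was the only member called in these comparisons of times, 1 of 6 tested in CCD and 1 of 7 in cTAL.

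Of the members tested at 3 h, 2 of 6 rose in CCD (Hbegf and Erbb3), 1 of 5 rose in cTAL (Hbegf) and none fell. In CCD 13.0% of all genes were called, 5.0% higher and 8.04% lower, and in cTAL 11.7% were called, 4.06% higher and 7.64% lower. The same members had every UUO animal above every sham animal, as did 6.25% of all genes in CCD and 5.68% in cTAL. The members' median log2 change was -0.20 in CCD and 0.01 in cTAL, beside -0.14 and -0.12 for all genes. After median-of-ratios rescaling the medians of all genes were -0.01 and 0.01.

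Erbb3 in CCD at 3 h was at 3.87, 3.17, 3.0 and 2.49 TPM in UUO animals, against 1.43, 1.12, 0.635 and 2.20 TPM in sham. The UUO animals all lay above the sham animals, with the lowest UUO and the highest sham value close together (change on the log2 scale 0.89, SE 0.24, 1.85-fold, adjusted p = 0.0424). The call was lost in 12 of 16 alternatives, among them 7 of 8 fits without 1 animal (all but sham animal 4) and the fit with the replicate block, where the adjusted p was 0.0872. In cTAL Erbb3 was at 0.23, 1.48, 0.80 and 1.11 TPM in UUO animals and 1.12, 1.0, 0.65 and 0.59 TPM in sham, with overlapping ranges (change on the log2 scale 0.01, SE 0.28). Between the segments the changes differed by 0.87 (SE 0.39, adjusted p = 0.352). In CCD the difference between the changes at 3 h and 30 min was 1.28 (SE 0.38, adjusted p = 0.111).

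Btc in CCD at 3 h was at 40.8, 30.03, 29.7 and 17.6 TPM in UUO animals, against 50.7, 52.7, 44.2 and 38.1 TPM in sham. UUO animal 1 lay above the lowest sham animal and the other 3 lay below all of them. The log2 change of -0.72 (SE 0.25, adjusted p = 0.0873) was not called, and without UUO animal 1 it was -0.91 (adjusted p = 0.0357). Without UUO animal 4, which holds the library with the highest Umod in CCD, it was -0.46 (adjusted p = 0.121), and without the 3 libraries above 5000 TPM of Umod it was -0.58 (adjusted p = 0.0620). In cTAL Btc was at 4.26, 4.47, 2.19 and 1.86 TPM in UUO animals and 2.46, 1.53, 1.68 and 1.5 TPM in sham, with overlapping ranges (change on the log2 scale 0.54, SE 0.31, adjusted p = 0.28). Between the segments the changes of Btc differed by -1.26 (SE 0.28) and missed the threshold (limma adjusted p = 0.0684, between 0.0599 and 0.188 in the alternatives).

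Erbb2 in CCD at 3 h was at 3.06, 1.6, 4.24 and 5.02 TPM in UUO animals and 5.33, 6.24, 5.31 and 5.20 TPM in sham. As mean TPM every UUO value lay below every sham value, UUO animal 4 by little, while on the log2 scale used for the test the ranges overlapped. The log2 change of -0.50 (SE 0.26, adjusted p = 0.235) was not called. The 2 libraries of an animal differed. In UUO library 1 had 2.98, 1.2, 5.28 and 4.58 TPM and library 2 had 3.13, 2.0, 3.19 and 5.45 TPM. In sham library 1 had 7.5, 8.98, 7.89 and 7.95 TPM and library 2 had 3.15, 3.5, 2.73 and 2.44 TPM. In sham, library 1 was above library 2 in every animal. Library 1 alone gave a log2 change of -1.11 (adjusted p = 0.0726) and library 2 alone gave 0.12 (adjusted p = 0.845). In cTAL Erbb2 averaged 3.68 ± 0.674 TPM in UUO animals and 4.20 ± 0.642 TPM in sham (change on the log2 scale -0.16, SE 0.25).

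Egfr in CCD at 3 h averaged 2.36 ± 0.581 TPM in UUO animals and 2.16 ± 0.248 TPM in sham (change on the log2 scale 0.03, SE 0.19). In cTAL it had 0.21, 1.06, 0.030 and 0.28 TPM in UUO animals and 0, 0.25, 0 and 0.73 TPM in sham and was not tested. Egf in cTAL at 3 h was at 1183, 1529, 1005 and 1153 TPM in UUO animals, against 921, 1310, 1524 and 1374 TPM in sham. The ranges overlapped (change on the log2 scale -0.07, SE 0.17). In the summed ligand TPM of cTAL, Egf made up 95.02 ± 1.02% in UUO and 99.5 ± 0.245% in sham, and Hbegf made up 4.71 ± 1.06% in UUO and 0.40 ± 0.188% in sham (SD, n = 4 each). In CCD the Hbegf share ran from 16.4 to 72.7% in UUO and from 3.70 to 12.8% in sham, without overlap. The Egf share in CCD ran from 1.74 to 78.5% in UUO and from 5.15 to 69.2% in sham. Its part in the spread of the Hbegf share was not tested.

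Egf in CCD moved with Umod, the gene of uromodulin, which the thick ascending limb secretes. At 3 h the 3 CCD libraries above 5000 TPM of Umod had the 3 highest Egf levels. Library 2 of UUO animal 4 had 549 TPM of Egf and 18235 TPM of Umod. Library 1 of sham animal 1 had 254 and 6941 TPM, and library 1 of sham animal 3 had 194 and 7957 TPM. Across the 16 CCD libraries the Spearman correlation of Egf and Umod was 0.844 at 30 min and 0.947 at 3 h, a description over libraries that come in pairs from the same numbers. The median of Egf per 1000 TPM of Umod at 30 min was 48.1 in CCD UUO, 63.8 in CCD sham, 80.2 in cTAL UUO and 82.9 in cTAL sham. At 3 h it was 55.7 in CCD UUO, 37.5 in CCD sham, 36.2 in cTAL UUO and 30.8 in cTAL sham. Egf in CCD at 30 min was at 8.03, 0.70, 2.61 and 0.995 TPM in UUO animals and 20.9, 3.34, 1.42 and 1.62 TPM in sham (change on the log2 scale -0.72, SE 0.65). At 3 h it was at 8.78, 2.1, 2.33 and 289 TPM in UUO animals and 130, 7.59, 103 and 2.42 TPM in sham (change on the log2 scale -0.43, SE 1.3), and the change was 0.18 with the 3 libraries left out. Neither change was called.

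**Figure D4:**
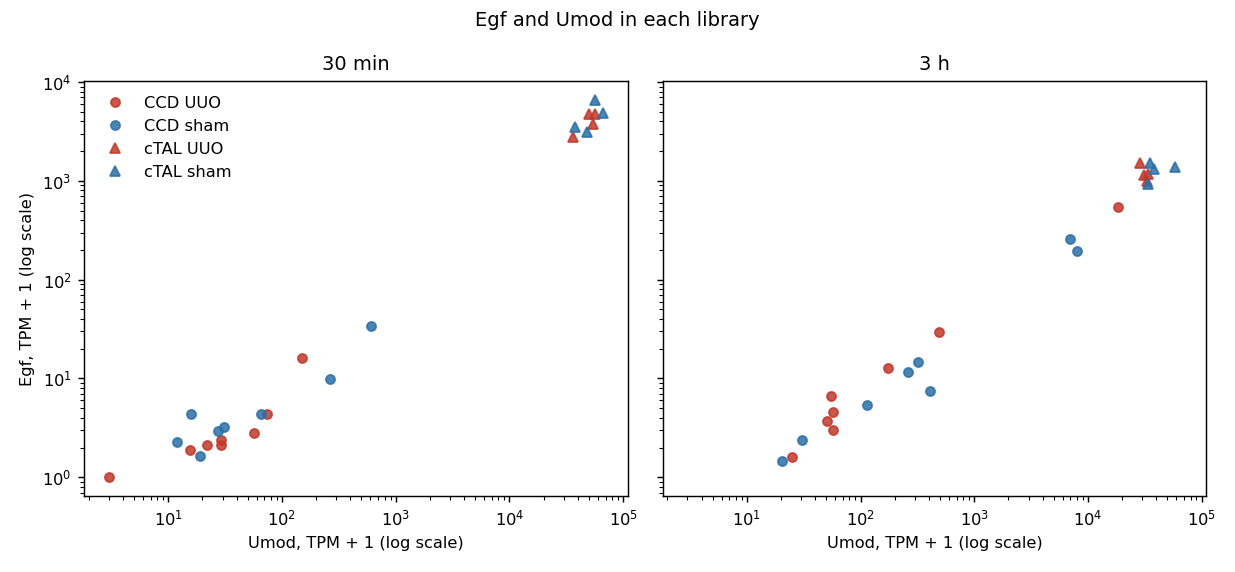
Egf against Umod, both as TPM + 1 on log axes, in every library at 30 min and 3 h, by segment and by UUO or sham. The cTAL libraries lie at upper right, and 3 CCD libraries of 3 h lie nearest to them, 1 of UUO and 2 of sham.

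Marker genes of several cell types moved with the groups at 3 h, and their part in the results for Hbegf, Erbb3, Btc and the genes below was not tested. In CCD the summed level of 8 principal cell genes ran from 5503 to 10052 TPM in UUO and from 15907 to 18653 TPM in sham, without overlap. In cTAL that of 8 thick ascending limb genes ran from 31522 to 36698 TPM in UUO and from 37252 to 62328 TPM in sham, also without overlap. Most of this cTAL sum was Umod, whose mean was 31568 TPM after obstruction against 41305 TPM after sham surgery. The mean sums were 34587 and 45142 TPM. Slc12a1, another gene of that list, was not lower after obstruction, with means of 405 against 370 TPM and overlapping ranges. The summed level of 9 intercalated cell genes ran from 4639 to 7646 TPM in CCD UUO and from 4946 to 7874 TPM in CCD sham, and from 291 to 396 TPM in cTAL UUO and from 240 to 279 TPM in cTAL sham, where UUO was the higher. The summed level of 3 red blood cell genes ran from 1082 to 5720 TPM in CCD UUO and from 16.5 to 884 TPM in CCD sham, and from 1341 to 7857 TPM in cTAL UUO and from 18.1 to 2230 TPM in cTAL sham. That of 7 proximal tubule genes ran from 180 to 992 TPM in CCD UUO and from 71.5 to 253 TPM in CCD sham, and from 212 to 879 TPM in cTAL UUO and from 8.33 to 179 TPM in cTAL sham. That of 7 macrophage genes ran from 311 to 1042 TPM in CCD UUO and from 199 to 672 TPM in CCD sham, and from 1277 to 2201 TPM in cTAL UUO and from 2328 to 3607 TPM in cTAL sham, where UUO was the lower. The 5 endothelial genes summed to 20.3 to 44.99 TPM in cTAL UUO and 57.6 to 215 TPM in cTAL sham, without overlap. The 7 fibroblast and smooth muscle genes summed to 18.2 to 78.5 TPM in CCD UUO and 5.68 to 16.9 TPM in CCD sham, and the 5 podocyte genes to 1.13 to 6.04 TPM in CCD UUO and 0.305 to 0.84 TPM in CCD sham, both without overlap. The change of Hbegf in CCD was 2.85 without the 3 libraries above 5000 TPM of Umod.

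Other ligands of the ErbB receptors, and the genes that release, relay and restrain their signals, were taken from lists. Of 5 other EGF family ligands, Nrg1 was tested at 3 h and rose in both segments. Its product, neuregulin 1, is a ligand of ErbB3 and ErbB4. In CCD it was at 3.54, 5.48, 10.4 and 10.9 TPM in UUO animals, against 2.15, 1.44, 0.86 and 1.64 TPM in sham (change on the log2 scale 1.70, SE 0.33, adjusted p = 0.0142). In cTAL it was at 4.73, 19.6, 12.1 and 10.7 TPM in UUO animals, against 0, 0.77, 0.72 and 0 TPM in sham (change on the log2 scale 3.13, SE 0.41, adjusted p = 0.00274). All sham values in cTAL were under 1 TPM, so Nrg1 passed the filter there through its UUO values alone. The cTAL call held in all 13 alternatives, among them no filter. UUO lay above sham in both segments, and the difference between the segments' changes was -1.44 (SE 0.49, adjusted p = 0.211). The difference between its changes at 3 h and 30 min was 1.74 in CCD (adjusted p = 0.0464), lost in 19 of 23 alternatives and in 14 of 16 fits without 1 animal, all but sham animal 1 or UUO animal 1 of 3 h. In cTAL it was 2.94 (adjusted p = 0.00641), called in all 21 alternatives.

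Of 9 genes that shed ligands or control shedding, 7 were tested in CCD and 7 in cTAL at 3 h. In CCD 1 rose and 6 were not called (median log2 change 0.15), and in cTAL 2 rose and 5 were not called (median 0.33). Of all genes 5.0% rose in CCD and 4.06% in cTAL, with medians of -0.14 and -0.12. Rhbdf1 encodes iRhom1, which takes part in the transport of the sheddase ADAM17. It averaged 24.3 ± 6.45 TPM in CCD UUO and 12.9 ± 3.20 TPM in CCD sham (change on the log2 scale 0.87, adjusted p = 0.0406), and 9.27 ± 2.7 TPM in cTAL UUO and 3.38 ± 1.42 TPM in cTAL sham (change on the log2 scale 1.25, adjusted p = 0.0393). Each Rhbdf1 call was lost in 7 of 8 fits without 1 animal, all but UUO animal 1. Timp3, an inhibitor of ADAM17 and other metalloproteases, rose in cTAL, at 70.8 ± 20.02 TPM in UUO animals against 29.03 ± 8.02 TPM in sham (change on the log2 scale 1.26, adjusted p = 0.0183), a call lost with the replicate block (adjusted p = 0.0561). In CCD Timp3 had a log2 change of 0.42 (adjusted p = 0.0621). Adam17 itself had log2 changes of -0.30 in CCD and -0.36 in cTAL, neither called.

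Of 16 adaptors and Ras-ERK relay genes, 12 were tested in each segment at 3 h. In CCD 1 rose and 11 were not called (median log2 change -0.12), and in cTAL 12 were not called (median 0.27), where 5.0% of all genes rose in CCD and 4.06% in cTAL and the medians were -0.14 and -0.12. A share of 1 in 12 in CCD is no result about the list. The gene that rose was Nras, a Ras GTPase, at 39.6 ± 6.90 TPM in CCD UUO and 23.3 ± 3.57 TPM in CCD sham (change on the log2 scale 0.73, SE 0.16, adjusted p = 0.0224). Its call was lost in 4 of 16 alternatives, namely without sham animal 1, sham animal 2 or UUO animal 4 and from library 2 alone.

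Of 18 feedback inhibitors and receptor turnover genes, 9 were tested in CCD and 10 in cTAL at 3 h. In CCD 1 rose and 8 were not called (median log2 change 0.40), and in cTAL 3 rose and 7 were not called (median 0.34), beside 5.0% of all genes that rose in CCD and 4.06% in cTAL, with medians of -0.14 and -0.12. Errfi1 encodes MIG6, which binds the EGF receptor kinase domain and inhibits it. In CCD it was at 51.9, 59.5, 24.2 and 57.2 TPM in UUO animals, against 14.7, 9.64, 4.995 and 7.5 TPM in sham (change on the log2 scale 2.17, SE 0.33, adjusted p = 0.00730). In cTAL it was at 45.3, 164, 90.6 and 88.5 TPM in UUO animals, against 9.93, 10.1, 7.01 and 5.34 TPM in sham (change on the log2 scale 3.33, SE 0.36, adjusted p = 0.00113). UUO and sham did not overlap in either segment, and the difference between the segments' changes was -1.16 (SE 0.45, adjusted p = 0.272). The difference between the changes at 3 h and 30 min was 2.84 in CCD (adjusted p = 0.0145) and 2.79 in cTAL (adjusted p = 0.0232). The cTAL call was lost in 3 of 21 alternatives, among them the fits without sham or UUO animal 2 of 30 min. In cTAL Spry2, an inhibitor of receptor tyrosine kinase signalling, also rose (change on the log2 scale 1.40, adjusted p = 0.0462), as did Ptpn1, a phosphatase that acts on the EGF receptor (change on the log2 scale 1.03, adjusted p = 0.0468). The Spry2 call was lost in 7 of 8 fits without 1 animal, all but UUO animal 1, and the Ptpn1 call in 8 of 8. In CCD their log2 changes were 0.61 and 0.40, neither called.

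Of 13 genes known as outputs of ERK signalling, 8 were tested in CCD and 9 in cTAL at 3 h. In CCD 4 rose and 4 were not called (median log2 change 0.75), and in cTAL 4 rose and 5 were not called (median 1.23). Over all genes 5.0% rose in CCD and 4.06% in cTAL, and the medians were -0.14 and -0.12. Myc, a transcription factor of growth, was at 10.5, 13.5, 13.1 and 27.3 TPM in CCD UUO, against 1.18, 1.62, 0.90 and 0.635 TPM in CCD sham (change on the log2 scale 2.87, SE 0.31, adjusted p = 0.00218). In cTAL it was at 9.7, 17.1, 14.1 and 28.3 TPM in UUO animals, against 0.52, 2.35, 0.73 and 0.50 TPM in sham (change on the log2 scale 3.17, SE 0.39, adjusted p = 0.00192). UUO and sham did not overlap in either segment. The difference between the changes at 3 h and 30 min was 2.97 in CCD (adjusted p = 0.00132) and 3.19 in cTAL (adjusted p = 0.00828). The cTAL call was lost in 1 of 21 alternatives (limma adjusted p = 0.0533). Ier3, an early response gene, rose by 1.40 on the log2 scale in CCD (adjusted p = 0.0181, lost without sham or UUO animal 2 and from library 2 alone) and by 1.80 in cTAL (adjusted p = 0.00947).

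Of the other output genes, Dusp6 and Epha2 were called in CCD and Fos and Egr1 in cTAL, and the rest of those tested were called in neither segment. Dusp6, an ERK phosphatase, was at 20.3, 8.98, 11.4 and 24.8 TPM in CCD UUO, against 5.1, 1.13, 7.76 and 0.59 TPM in CCD sham (change on the log2 scale 2.18, SE 0.55, adjusted p = 0.0322). That call was lost in 9 of 16 alternatives, among them 5 of 8 fits without 1 animal (sham animals 2 and 4 and UUO animals 1, 2 and 4). In cTAL Dusp6 was at 3.6, 7.16, 8.42 and 43.1 TPM in UUO animals and 16.4, 15.6, 22.7 and 12.5 TPM in sham, with 3 UUO animals below every sham animal and animal 4 above (change on the log2 scale -0.64, adjusted p = 0.518). For Dusp6 the difference between the segments' changes was 2.82 (SE 0.63, adjusted p = 0.0678). Epha2, a receptor tyrosine kinase, rose in CCD (change on the log2 scale 0.96, adjusted p = 0.0227), a call lost in 5 of 8 fits without 1 animal (sham animals 2, 3 and 4 and UUO animals 2 and 4), and had 1.23 in cTAL (adjusted p = 0.118).

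Fos and Egr1, transcription factors of the early response, rose in cTAL. Fos was at 182, 76.8, 81.7 and 333 TPM in cTAL UUO, against 2.1, 26.1, 2.3 and 3.66 TPM in cTAL sham, without overlap (change on the log2 scale 4.55, SE 0.70, adjusted p = 0.00515). In CCD Fos was at 266, 518, 555 and 385 TPM in UUO animals and 175, 316, 167 and 757 TPM in sham, high in both with overlapping ranges (change on the log2 scale 0.54, SE 0.44, adjusted p = 0.436). The difference between the segments' changes of Fos was -4.01 (SE 0.80, adjusted p = 0.0475), lost in 11 of 14 alternatives, among them 7 of 8 fits without 1 animal (all but sham animal 2). Egr1 had a log2 change of 2.29 in cTAL (adjusted p = 0.00979) and -0.06 in CCD (adjusted p = 0.945), and the difference between the segments' changes was -2.35 (adjusted p = 0.0878).

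None of the tested genes of these lists was called at 30 min in either segment. The median log2 change of the ERK output genes at 30 min was -0.21 in CCD and 0.05 in cTAL, beside -0.31 and -0.07 for all genes. The largest log2 change of that list in cTAL was 2.53, for Fos. Fos in cTAL at 30 min was at 185, 242, 246 and 546 TPM in UUO animals. In sham it was at 52.45, 19.69, 54.65 and 87.41 TPM. It was not called, in a comparison that called 0.00910% of 10993 genes. In CCD at 30 min the ranges of Fos overlapped. Of 5 magnesium transport genes linked to EGF, 4 were tested in CCD and 2 in cTAL at 30 min, and 2 in CCD and 3 in cTAL at 3 h, and none of those tested was called. Among the 5, Trpm6, the channel that EGF is known to stimulate, was too low to be tested at 3 h. It then averaged 0.463 TPM in CCD UUO and 0.441 TPM in CCD sham, and 0.080 TPM in cTAL UUO and 0.135 TPM in cTAL sham.

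**Figure D5:**
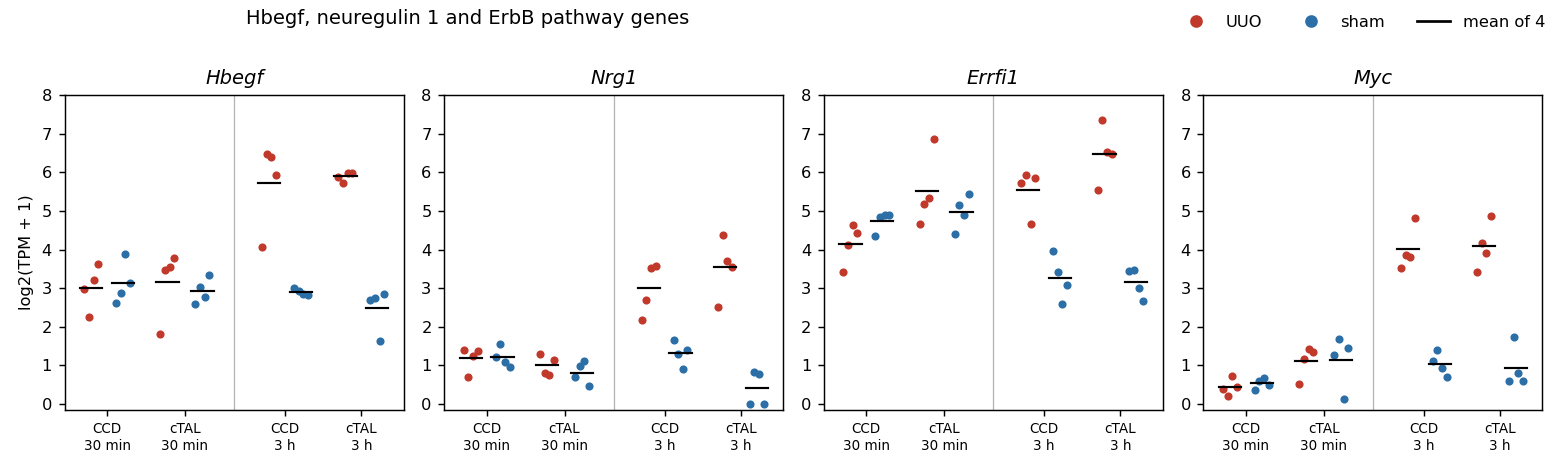
Hbegf, Nrg1, Errfi1 and Myc on the log2(TPM + 1) scale in CCD and cTAL at 30 min and 3 h, with a point per animal, UUO left of sham, and the mean of 4 marked. These 4 genes were among those called in both segments at 3 h. There every UUO animal lies above every sham animal, as for 6.25% of all genes in CCD and 5.68% in cTAL.

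Genes whose levels ran most like those of a member were sought among 7678 genes, by the smaller of the 2 Pearson correlations over the 16 animal values of each table. These are descriptions, since the points share segments and arms. Egf was most like Tmem207 (0.996), Umod (0.995) and Slc12a1 (0.994), followed by LOC108348190 and Fxyd6. Btc was most like Kit (0.982), Scnn1g (0.981), Pls1, Myh10 and Ldha. Hbegf was most like Slc25a25 (0.783) and Sh3rf1 (0.712), followed by Arrdc4, Rassf1 and Fv1. Erbb2 was most like Inava (0.734), followed by Mlst8, Nipal2, Gga1 and Galk1.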

How the data were processed

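Expression was measured in 48 libraries of microdissected tubules, 24 at each time. Per the labels' protocols, polyA RNA was reverse transcribed with SMARTer V4 chemistry, amplified over 15 PCR cycles and tagmented with Nextera XT. STAR 2.7.3, RSEM 1.3.3 and the build Rnor_6.0 are named per the submitters' processing notes. The deposited values are TPM per gene, made by the authors in a separate table for each time. Depth is unknown, and low input with amplification can widen the spread of low genes.

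Groups and numbers were taken from the sample titles. Libraries that share segment, arm, time and number were treated as 1 animal, which the titles do not state, so p-values measure the spread between numbered samples, which may be partly technical. The paired CCD libraries entered as their mean of log2(TPM + 1), with a pseudocount of 1. The filter asked for 1 TPM or more in 4 or more values. Tests used limma 3.58.1 (R 4.3.3, mean-variance trend, Benjamini-Hochberg over all genes tested) in 10 comparisons, after the code was tested on simulated data. Segments were compared within numbers and times as a difference of changes. This takes CCD and cTAL of the same arm, time and number as 1 animal, which the titles do not state either. Correlations of their deviations ran from 0.103 to 0.541 at 30 min and from 0.061 to 0.336 at 3 h, over 8 pairs at each time.

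UUO and sham share numbers. In CCD at 30 min same-numbered animals deviated together (correlations from 0.115 to 0.229 over 4 pairs), and the fit with the replicate block called 3 genes, as did the fit without it. In the other 3 comparisons of UUO with sham not every pair was above 0.1. From 4 pairs it cannot be told whether those animals share more than a number, which the titles do not state.

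The members, the lists and the tests were chosen with earlier results of these data known. All members are named, with up to 4 called genes per list and comparison, and for likeness 5 genes per member. Adam17, Trpm6 and Calb1 were chosen after their values were seen, and a gene called in a segment is also given for the other. Alternatives were a pseudocount of 0.1, no filter, median-of-ratios and quantile scaling, the replicate block or its removal, single libraries, each animal left out, and 2 chosen after seeing the data. Figures were drawn with matplotlib 3.10.9.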

Additional observations from a re-analysis of the deposited data

Results flagged for a closer look

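Single values far from their group were sought on the log2(TPM + 1) scale, by the gap to the nearest neighbour over the whole range. The rule was not applied to TPM, in which the values are printed. In 5 of 48 groups of 4 animals a single value lay far from the other 3, and chance gives this in about 1 in 20 groups. In UUO these were Hbegf in cTAL at 30 min, where animal 1 was at 2.53 TPM, and Egfr in CCD at 30 min, where animal 2 was at 3.30 TPM. In sham they were Hbegf in cTAL at 3 h, where animal 3 was at 2.1 TPM, Btc in cTAL at 30 min, where animal 2 was at 3.76 TPM, and Erbb2 in CCD at 30 min, where animal 1 was at 4.26 TPM. CCD UUO animal 2 at 30 min holds the library with the fewest detected genes.

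The change with UUO differed between the segments at 3 h for Fos, by -4.01 on the log2 scale (CCD minus cTAL), a call lost in 11 of 14 alternatives. It differed between the times for 5 genes in CCD, by 2.96 for Hbegf, 1.74 for Nrg1, 2.13 for Rhbdf1, 2.84 for Errfi1 and 2.97 for Myc (3 h minus 30 min, limma adjusted p = 0.0433 for Rhbdf1). Of 23 alternatives, 12 lost the call of Hbegf, 19 that of Nrg1 and 14 that of Rhbdf1, while Errfi1 and Myc kept theirs. The change differed between the times for 4 genes in cTAL, by 3.20 for Hbegf, 2.94 for Nrg1, 2.79 for Errfi1 and 3.19 for Myc. Of 21 alternatives, 3 lost the call of Errfi1 and 1 that of Myc, while Hbegf and Nrg1 kept theirs. The 2 times were processed as separate tables, so time and table cannot be told apart in these differences.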

How the results depend on the processing

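Over the alternatives run, 618 of the refits of 51 member results kept direction and call, 26 lost a call, 2 gained one and 69 changed sign, all of them for changes that were not called. Of the refits of 26 called pathway results, 315 kept the call, 112 lost it and none changed sign. Hbegf was called at 3 h in both segments in every alternative. Timp3 in cTAL at 3 h lost its call in a single alternative, the replicate block (adjusted p = 0.0561).

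Called genes for UUO against sham in CCD at 30 min numbered 3, but 956 from library 1 alone (7 higher and 949 lower) and 1 from library 2 alone. In CCD at 3 h they numbered 1373, but 852 without the filter, 770 with the replicate block, 676 from library 1 and 490 from library 2. In cTAL at 3 h they numbered 1173, but 760 without the filter and 580 with the replicate block. Between the segments' changes at 30 min, 143 genes were called with UUO number 2 taken from library 1 alone, an alternative chosen after seeing the data, and none in the fit reported. At 3 h the count was 124, but 71 with a pseudocount of 0.1 and 20 without the filter. Between times in CCD it was 184, but 85 with a pseudocount of 0.1, 35 without the filter and 310 with number 2 from library 1 alone. In cTAL it was 268, but 95 with the replicate block. The replicate block ended the calls of Erbb3, Epha2, Dusp6 and Rhbdf1 in CCD at 3 h. It also ended those of Rhbdf1, Spry2, Ptpn1 and Timp3 in cTAL at 3 h, and of Nrg1 between times in CCD. Between times in cTAL the call of Myc was lost in 1 of 21 alternatives and that of Errfi1 in 3 of 21. The difference between the segments' changes of Fos at 3 h, fitted with the block, was lost without it (adjusted p = 0.0550).

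With an animal left out the counts ran from 2 to 3 (CCD 30 min), 460 to 1638 (CCD 3 h), 1 to 1 (cTAL 30 min), 471 to 1036 (cTAL 3 h), 5169 to 6130 and 2676 to 3555 (CCD against cTAL at 30 min and 3 h), 0 to 647 and 17 to 98 (segments' changes), and 35 to 275 and 149 to 332 (between times in CCD and cTAL). Under median-of-ratios rescaling the calls were 700 higher and 455 lower in CCD at 3 h against 526 higher and 847 lower, and 492 higher and 414 lower in cTAL against 407 higher and 766 lower. For CCD against cTAL in sham at 30 min they were 3107 higher and 2741 lower against 4859 higher and 1541 lower, and at 3 h they were 1576 higher and 1759 lower against 2916 higher and 1099 lower. Between times they were 161 higher and 64 lower against 154 higher and 30 lower in CCD, and 155 higher and 132 lower against 108 higher and 160 lower in cTAL. Quantile normalization gave 636 higher and 660 lower in CCD at 3 h, 465 higher and 597 lower in cTAL at 3 h, 2913 higher and 3164 lower and 1547 higher and 1701 lower for CCD against cTAL, and 90 higher and 76 lower in CCD between times.

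Signs turned as follows, on the log2 scale. In CCD at 30 min median-of-ratios rescaling gave 0.16 for Hbegf, 0.34 for Btc and 0.046 for Egfr, and quantile normalization gave 0.30 for Hbegf, 0.27 for Btc, 0.19 for Egfr and 0.023 for Erbb3. Library 1 alone gave 0.038 for Hbegf, 0.28 for Btc and 0.088 for Egfr, and number 2 from library 1 alone gave 0.14 for Btc and 0.019 for Egfr. In CCD at 3 h Egfr had -0.004 with a pseudocount of 0.1 and -0.25 from library 2, Egf had 1.25 from library 2 and 0.18 without the libraries high in Umod, and Erbb2 had 0.12 from library 2. In cTAL at 3 h Erbb3 had -0.073 with a pseudocount of 0.1 and Egf had 0.082 after median-of-ratios rescaling. For CCD against cTAL Hbegf had -0.11 and -0.24 at 30 min under the same 2 scalings, and Erbb2 had -0.10 at 30 min under quantile normalization. At 3 h Erbb2 had -0.057 and -0.14 under the 2 scalings and -0.076 without the libraries high in Umod. Between the segments' changes at 30 min Btc had 0.28, 0.23 and, with number 2 from library 1 alone, 0.13, and Hbegf had 0.057 under quantile normalization.

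Leaving out an animal turned signs within these ranges: in CCD at 30 min Hbegf -0.35 to 0.12, Btc -0.23 to 0.22 and Egfr -0.38 to 0.14, in CCD at 3 h Egf -1.65 to 0.20 and Egfr -0.10 to 0.11, in cTAL at 30 min Egf -0.31 to 0.054, Btc -0.083 to 0.22, Egfr -0.11 to 0.16, Erbb2 -0.18 to 0.27 and Erbb3 -0.17 to 0.41, and in cTAL at 3 h Egf -0.22 to 0.024 and Erbb3 -0.13 to 0.21. Further ranges were -0.12 to 0.31 for Hbegf between the segments at 30 min, -0.80 to 0.004 for Hbegf and -0.21 to 0.13 for Btc between the segments' changes at 30 min, and -0.40 to 0.18 for Erbb3 between times in cTAL. The cause was not tested. Depth is unknown, so the precision of low values such as those of Areg, Ereg and Tgfa cannot be stated.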
